A study of Mus musculus with 4 samples.

Results

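Both cultures that had received an overexpression lentivirus were set against both cultures that had received an shRNA lentivirus, and the genes on which the sides did not overlap were described. Of 18194 mouse genes with a probe set that carries 1 gene symbol, 11345 lay above a filter on low values, and 6609 of these (58.3%) had both overexpression arrays above, or both below, both shRNA arrays. These are called separated genes here. The overexpression side was the higher one for 2972 of them (26.2% of the genes above the filter) and the lower one for 3637 (32.1%).

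Myeloid-derived suppressor cells (MDSCs) are immature myeloid cells that restrain T cells, and they come in a monocytic and a polymorphonuclear, neutrophil-like form. Marrow cells kept with the cytokines GM-CSF and IL-6 turn into such cells within days, but the dish starts as whole marrow and so can also carry B-lineage precursors, mast cells, basophils, eosinophils and lymphocytes. Programmes that answer to the state of the dish, such as the heat shock response, the hypoxia response, the immediate early genes that switch on within minutes of a stimulus, sterol synthesis and the cell cycle, can likewise differ from dish to dish.

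RNA came from C57BL/6 mouse bone marrow that was given lentivirus and kept with GM-CSF and IL-6 for 4 days, and each of the 4 groups was read on 1 Affymetrix array. On the shRNA side, kdNC had received a control shRNA lentivirus, which carried a luciferase shRNA in the study's methods, and kdLNC a lentivirus with an shRNA against the long noncoding RNA lncMDSC (shlncMDSC). On the overexpression side, oeNC had received the overexpression control lentivirus and oeLNC the lncMDSC overexpression lentivirus. All 4 cultures therefore share the strain, the cytokines and a lentivirus, and the vector, the culture and any batch cannot be told apart. The 2 arrays of a side differ in treatment, so they are not replicates, no replicate error is available, and the values below describe 4 cultures. An exact two-sided permutation of 2 arrays against 2 cannot give a p under 0.333. The number of mice behind a culture is not given in the sources used here, and the level of lncMDSC itself was not analysed here.

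Values are log2 intensities, and 4 values in a row stand in the order kdNC, kdLNC, oeNC, oeLNC. The mean difference is the mean of the overexpression arrays minus that of the shRNA arrays, and the gap is the distance between the nearest arrays of the sides. The arrays had medians of 4.17 to 4.24, the actin 3′ probe set exceeded its 5′ probe set by 1.61 to 1.97, and the spiked hybridization controls averaged 10.09 to 10.19. The polyA controls added to the RNA averaged 4.98, 5.05, 5.39 and 4.84, so the arrays of the overexpression side were the highest and the lowest. Other array measures did separate the sides. The 18S ribosomal RNA probe sets stood at 11.61, 11.45, 11.06 and 11.15 for 3′ and at 10.95, 10.90, 10.67 and 10.39 for 5′. The upper quartile of the arrays was 6.15, 6.14, 6.08 and 5.98. How far such array differences enter the values below was not tested. Over all genes above the filter the median mean difference was -0.01. The difference between the sides held 68.9% of the variation over the 4 arrays, that between kdLNC and kdNC 12.5% and that between oeLNC and oeNC 18.6%.

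The labelled cells were checked against their markers. S100a8 and S100a9, calprotectin subunits abundant in neutrophils and MDSCs, were near the top of the scale on every array, at 13.32 to 13.43 and 13.32 to 13.49. Itgam encodes CD11b, which the paper uses together with Gr1 to identify mouse MDSCs. It lay between 8.41 and 9.03 and overlapped between the sides. Adgre1, which encodes the macrophage antigen F4/80, lay between 9.80 and 9.99 and overlapped too. Csf1r, the receptor for the monocyte growth factor M-CSF, was separated by a narrow gap, at 11.61, 11.43, 11.77 and 11.87. Ly6c1 has no probe set with 1 symbol on this array.

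The separation was narrow for most genes and wide for few. The gap ranged from 0.000117 to 3.07 on the log2 scale with a median of 0.20, and 982 separated genes had a gap under 0.05, while 1148 genes just outside the rule overlapped by under 0.05. Only 52 genes (0.458% of those above the filter) had every overexpression array at least 2-fold above every shRNA array, and 131 genes (1.15%) lay at least 2-fold below. Another scaling shifted the balance of directions: 45.0% of the separated genes were higher on the overexpression side in the deposited values, 44.0% after centring each array on its median, and 56.4% after a further quantile normalization, which gave 3866 higher and 2983 lower genes. The median over all genes stayed within 0.06 of 0 under each of them. As a count over all genes, limma called 870 of 11345 at an adjusted p under 0.05 (248 higher and 622 lower). Its residual had 2 degrees of freedom and held the knockdown and overexpression differences, and these calls were not used to choose or support any gene below.

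The widest gaps on the higher side were those of a pair of heat shock genes and of genes of varied function. Hspa1b, an inducible chaperone of the HSP70 family, stood at 7.44, 7.26, 11.97 and 10.51, and its nearest arrays were 8.39-fold apart. Its twin Hspa1a stood at 7.16, 6.39, 11.11 and 9.66. These genes are near-identical copies, so probes of one may read the other, and they are best taken as 1 signal. Cnnm2, a magnesium transport protein, stood at 4.42, 3.91, 7.98 and 6.91 with a 5.62-fold gap, and Selenbp1, which encodes a methanethiol oxidase, at 5.32, 4.52, 7.50 and 7.49 with a 4.51-fold gap. In both, another probe set of the gene was separated the same way. Arrdc3, an arrestin-domain regulator of receptor trafficking, followed at 7.51, 7.62, 10.11 and 9.56. Hilpda, a hypoxia-induced lipid droplet protein, was at 8.36, 8.34, 10.34 and 10.03, and Vegfa, the vascular growth factor, at 6.52, 6.21, 8.94 and 8.01. The remaining genes among the widest were Car6, a secreted carbonic anhydrase, Pcmtd2, the endosomal recycling gene Rab11fip1, the ubiquitin ligase gene Rnf125 and the F-box gene Fbxl20, with gaps of 2.74-fold to 2.87-fold. In 49 of the 52 genes with a 2-fold gap on this side, oeNC lay farther from the shRNA arrays than oeLNC did.

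On the lower side the widest gaps included histone genes, an immediate early factor and a B-cell marker. Snn, which encodes the small membrane protein stannin, stood at 8.09, 7.79, 4.40 and 5.20, a 6.01-fold gap. Egr1, an immediate early zinc finger factor, stood at 9.75, 9.75, 6.54 and 7.48, a 4.79-fold gap. The shRNA arrays agreed on Egr1 to the second decimal while the overexpression arrays differed by 0.95. The histone genes H2aw, H2bc21 and H2ax were among the widest. H2aw stood at 7.87, 7.71, 5.36 and 5.44, H2bc21 at 5.38, 5.96, 3.27 and 3.24, and H2ax, the variant phosphorylated at DNA breaks, at 8.22, 8.49, 6.38 and 6.19. The shRNA arrays of H2bc21 were 0.58 apart. Ms4a1, which encodes the B-cell antigen CD20, stood at 10.29, 10.43, 8.20 and 8.31, a 3.95-fold gap. The others were the RNA-binding gene Rbm12, Tspyl3, D17H6S56E-5, the vesicle transport gene Sft2d3, the translation initiation factor gene Eif1a and the sterol enzyme gene Sqle, with gaps of 3.52-fold to 4.57-fold. Sft2d3 lay under that limit too on the overexpression arrays, at 3.30 and 3.77. Of the 131 genes with a 2-fold gap on the lower side, oeNC was the farther overexpression array in 97. Genes with wide gaps were shorter than the rest: the median span on the reference annotation was 11.1 kb over the genes at least 2-fold lower, 16.4 kb over those at least 2-fold higher and 22.1 kb over all genes above the filter. Of the genes at least 2-fold lower, 27.5% spanned under 5 kb, as did 21.6% of those at least 2-fold higher and 12.9% of all.

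**Figure D1:**
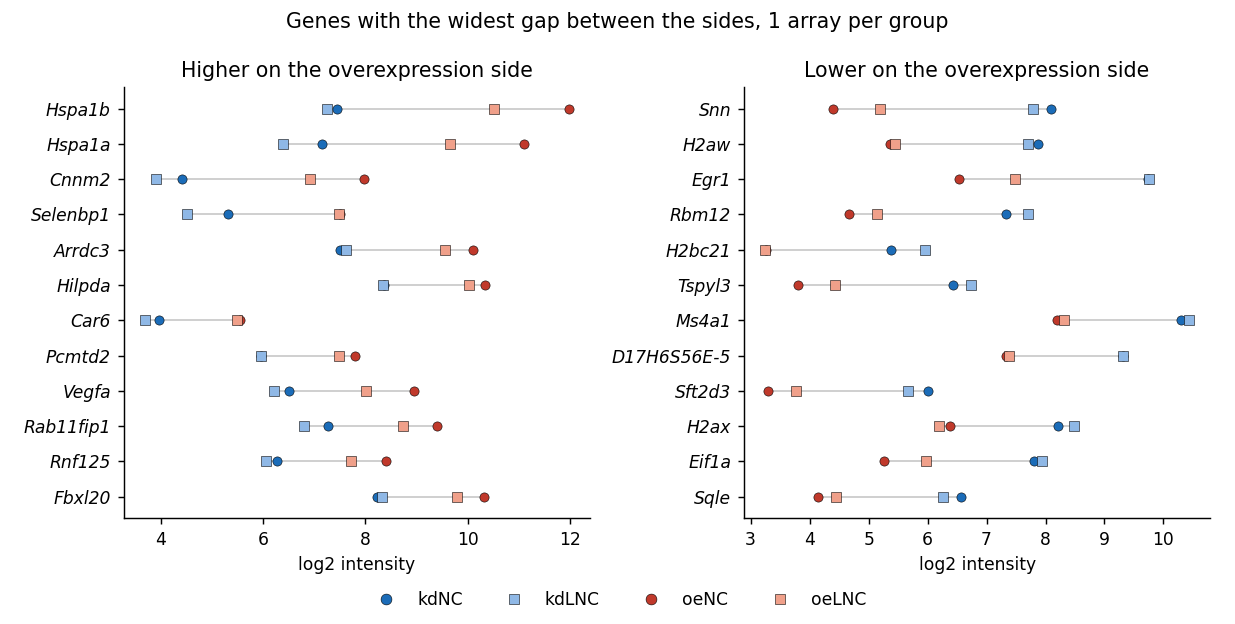
Log2 intensity (x axis) on each of the 4 arrays for the 12 genes with the widest gap in each direction (y axis), with circles for the control lentiviruses, squares for the lncRNA lentiviruses, blue for the shRNA side and red for the overexpression side. The sides do not touch in any row, and Hspa1b has the widest gap, from 7.44 on the nearer shRNA array to 10.51 on the nearer overexpression array.

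Cell types were described with 13 lists of marker genes and programmes with 17 lists, and for each list the separated members above the filter were counted in each direction beside the shares over all genes, 26.2% higher and 32.1% lower. Of 271 separated members 121 had another probe set above the filter. In 28 of these another probe set had the opposite sign, and in 15 it was separated the opposite way. These 15 were Dnajb1, Dnajc3, E2f3, Edem1, Gata2, Gla, Jun, Msr1, Mt1, Pax5, Ptges, Sox4, Stat5b, Tpx2 and Zbp1. Among the genes named below, Bub1b, Cybb, Egr3, Hspa4l, Myb, Slc30a1, Slc7a11 and Tfrc had another probe set of opposite sign that overlapped between the sides. In bulk RNA, fewer cells of a type and less RNA per cell cannot be told apart.

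**Figure D2:**
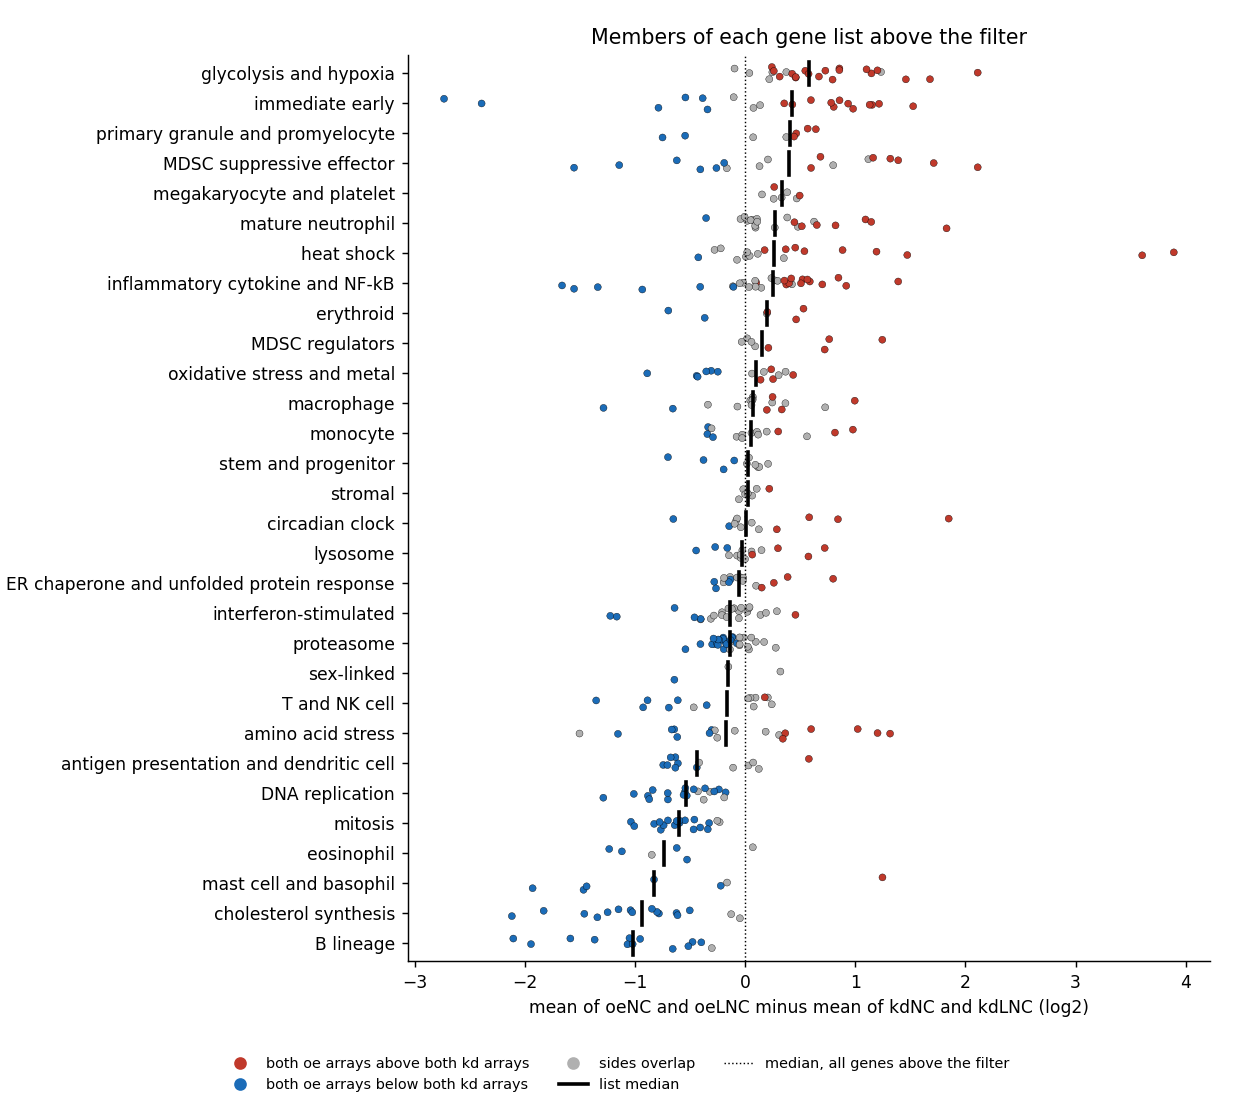
Mean difference between the sides on the log2 scale (x axis) for each list member above the filter, by gene list (y axis), with red for members on which both overexpression arrays lay above both shRNA arrays, blue for the reverse, grey for overlap and a black bar for the list median. The list medians run from 0.57 for glycolysis and hypoxia to -1.02 for the B lineage, and the dotted line marks the median of all genes above the filter, -0.01.

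B-lineage genes were lower on the overexpression side. Of 14 measured members 13 lay above the filter, 12 of these were separated as lower and none as higher, and the median mean difference was -1.02. Vpreb1, part of the surrogate light chain of the pre-B-cell receptor, stood at 8.99, 8.66, 7.19 and 6.57. Igll1, its partner in that chain, stood at 7.75, 7.37, 5.90 and 6.04. Both belong to precursors, but markers of later B cells lay the same way, with Ms4a1 as above and the inhibitory receptor gene Cd22 at 8.75, 9.21, 7.64 and 7.59. The antigen receptor subunit Cd79b, at 10.40, 10.43, 10.00 and 9.87, and the recombinase gene Rag1, at 8.79, 8.47, 8.38 and 8.08, had narrower gaps. Dntt, the template-free DNA polymerase of early lymphocytes, overlapped at 6.84, 6.36, 6.19 and 6.41, and Rag2 did not pass the filter. The summed intensity of the list was 6788 and 6666 on the shRNA arrays and 3509 and 3371 on the overexpression arrays. Within the sides the list hardly moved, by a median of -0.04 from kdNC to kdLNC and -0.05 from oeNC to oeLNC.

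Most mast cell and basophil genes above the filter were lower too, while Hdc was higher and Il4 overlapped. Of 11 measured members 7 lay above the filter, of which 5 were lower and 1 higher, with a median of -0.83. Ms4a2 and Fcer1a, subunits of the high-affinity IgE receptor, stood at 7.67, 7.53, 5.36 and 5.98 and at 6.51, 6.00, 4.72 and 4.91. Cpa3, the mast cell carboxypeptidase, was at 8.04, 8.01, 6.30 and 6.81. The basophil protease gene Mcpt8 was lower as well, at 10.52, 10.16, 9.39 and 9.62. Hdc, which makes histamine and is also used by neutrophils, ran the other way at 9.74, 9.43, 11.07 and 10.59. The cytokine gene Il4 overlapped at 7.44, 7.00, 6.76 and 7.35. The mast cell protease genes Tpsab1, Tpsb2, Cma1 and Mcpt4 lay below the filter, where Tpsab1, Tpsb2 and Mcpt4 were separated as higher. Over all 11 measured members 4 were higher and 5 lower, with a median of -0.17.

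Of the 6 eosinophil genes above the filter 5 were highest on kdNC, the exception being Siglecf. Of 6 members above the filter 4 were lower and none higher, with a median of -0.74, which came to -0.20 without kdNC and -1.28 without kdLNC. Epx, the eosinophil peroxidase, stood at 8.75, 7.63, 7.05 and 7.09, and Prg3, a granule protein, at 8.53, 7.46, 6.61 and 6.91. The lipoxygenase gene Alox15 had a gap of 0.06, and Prg2, the major basic protein, one of only 0.02 at 10.75, 9.87, 9.84 and 9.72. Siglecf, a surface receptor of eosinophils, overlapped at 6.82, 6.27, 6.91 and 6.31.

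Genes for presenting antigen on MHC class II were lower on the overexpression side. Of the 13 members above the filter 7 were lower, 1 was higher and the median was -0.44. H2-Aa stood at 11.00, 11.07, 10.29 and 10.28, H2-Eb1 at 9.60, 9.55, 9.05 and 8.84, and the invariant chain gene Cd74 at 9.85, 10.07, 9.34 and 9.32. Ciita, the coactivator that turns on class II genes, was at 5.55, 5.59, 5.08 and 4.71, and Batf3, a dendritic cell factor, at 5.19, 5.17, 4.55 and 4.39. The class II genes are also used by B cells, whose markers were lower on the same arrays, and the share of either cell type in this result was not tested. Ccr7, which guides mature dendritic cells to lymph nodes, was higher at 7.85, 7.38, 8.33 and 8.05. Itgax and Flt3 overlapped. Leaving out probe sets that may match several transcripts brought the list's median to 0.02. That setting drops the probe sets used here for H2-Aa, H2-Ab1, Cd74, Ciita and Cd40. H2-Eb1 keeps its own, with a mean difference of -0.64, so the 0.02 does not bear on the dropped class II genes.

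In the T and NK cell list 6 of 14 members were lower and 1 higher, with a median of -0.16. That median was not stable: it came to 0.04 without probe sets that may match several transcripts, and it was -0.19 in the control pair (oeNC minus kdNC) and 0.10 in the lncRNA pair (oeLNC minus kdLNC). Gzma and Gzmb, granzymes of killer cells, stood at 9.006, 9.004, 7.35 and 7.95 and at 9.16, 8.72, 8.19 and 8.29. The pore-forming protein gene Prf1 was at 4.72, 4.64, 3.88 and 4.25, and the adhesion receptor gene Cd2 at 7.64, 7.68, 6.98 and 6.56. Cd3e, Cd4 and Cd8a overlapped, at 4.46 to 5.41, a little above the filter's 4.199. Cd3g was lower at 4.98, 4.91, 4.54 and 4.65, and Cd3d was higher by a gap of 0.03. The natural killer cell genes Nkg7 and Ncr1, the receptor gene Il2rb and the transcription factor gene Eomes overlapped. Tbx21, a factor of the same family as Eomes, was lower by 0.15, at 4.83, 6.25, 4.68 and 4.55. Its kdLNC value was 1.42 above kdNC, more than the gap between the sides.

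Neutrophil granule genes were for the most part lowest on kdLNC. Among 21 mature neutrophil genes 7 (33.3%) were higher and 1 was lower, with a median of 0.27 that came to 0.07 without kdLNC. Ltf, the secondary granule protein lactoferrin, stood at 9.69, 6.99, 10.44 and 9.91, and Camp, the cathelicidin precursor, at 12.46, 10.96, 12.57 and 12.48. In both, kdLNC lay far under the other 3 arrays. Olfm4 and Cd177, proteins of neutrophil subsets, had the widest gaps of the list, at 6.56, 6.03, 7.70 and 7.18 and at 7.86, 7.09, 8.86 and 8.27. Csf3r, the G-CSF receptor gene, was at 9.41, 9.04, 9.70 and 9.64. Fpr2, a receptor for formylated peptides, was the lower member, at 12.58, 12.51, 11.99 and 12.39. Among 8 primary granule genes 4 were higher and 2 lower, with a median of 0.41 that came to 0.05 without kdLNC. Mpo and Prtn3, enzymes of that granule, stood at 6.44, 6.47, 7.06 and 6.77 and at 7.71, 7.19, 8.14 and 7.89. Ctsg, cathepsin G of the same granule, ran the other way at 8.83, 8.76, 8.04 and 8.04, and Gfi1, a repressor needed for neutrophils to form, stood at 5.78, 5.55, 6.69 and 5.92.

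Monocyte and macrophage genes moved in both directions. Of 15 monocyte genes 3 were higher and 3 lower (20.0% each, under the shares of all genes), with a median of 0.06. Cd14, the endotoxin co-receptor, stood at 11.74, 11.53, 12.66 and 12.56 and F13a1, a coagulation factor chain, at 5.87, 6.55, 7.27 and 6.78. The chemokine receptor gene Cx3cr1 was lower at 5.09, 5.03, 4.63 and 4.82, as was Ms4a6c at 9.75, 9.84, 9.53 and 9.37. Of 16 macrophage genes above the filter 4 were higher and 2 lower, with a median of 0.07. Maf, a macrophage transcription factor, stood at 9.21, 10.27, 8.31 and 8.59. All its 4 other probe sets above the filter were separated the same way. Gpnmb, a lysosome-related glycoprotein, was lower at 10.42, 10.37, 9.51 and 9.96, while the scavenger receptor gene Marco was higher at 5.47, 6.01, 7.20 and 6.27. Msr1, another scavenger receptor, had a gap of 0.05 at 9.92, 10.20, 10.25 and 10.36, and of its 3 other probe sets 1 was separated the opposite way.

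The remaining cell type lists held few separated genes. Of the megakaryocyte list 2 of 7 members were higher, Gp9 and Gp6, platelet glycoproteins, with gaps of 0.12 and 0.03, and none was lower, for a median of 0.33. Of 6 erythroid genes 3 were higher and 2 lower. Slc4a1, the red cell anion exchanger, stood at 4.32, 4.38, 4.88 and 4.88 and Epor, the erythropoietin receptor, at 4.37, 4.44, 4.66 and 5.08, both near the filter, and the transferrin receptor gene Tfrc, which dividing cells also use, was lower at 9.29, 9.45, 8.51 and 8.83, with Gata1 at 5.68, 5.68, 5.37 and 5.25. The erythroid median was 0.20, and it was -0.25 over members above the 70th percentile. Among 7 stromal genes only the matrix proteoglycan gene Dcn was separated, by 0.08, and the median was 0.02. Of 10 stem and progenitor genes 4 were lower and none higher, for a median of 0.02. Sox4, a factor of immature cells, stood at 9.45, 9.49, 8.97 and 8.57, and the gaps of Gata2, Myb and Kit were 0.15, 0.14 and 0.01.

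Heat shock genes held the widest separation of the data, carried by a few members. Of 20 measured members 18 lay above the filter, and 9 of these were higher and 1 lower, with a median of 0.26. The 250 bases before the most upstream annotated start are shown for the pair with the widest gap and for Hsph1, because all contain the short repeat that heat shock factors are known to bind. They are RefSeq sequence on GRCm38.p6, minus strand, from chr17:34959239-34959488 for Hspa1b, chr17:34972157-34972406 for Hspa1a and chr5:149636337-149636586 for Hsph1, written 5′ to 3′ with the match to GAANNTTC or TTCNNGAA in capitals. Both motifs read the same on either strand.
Hspa1b: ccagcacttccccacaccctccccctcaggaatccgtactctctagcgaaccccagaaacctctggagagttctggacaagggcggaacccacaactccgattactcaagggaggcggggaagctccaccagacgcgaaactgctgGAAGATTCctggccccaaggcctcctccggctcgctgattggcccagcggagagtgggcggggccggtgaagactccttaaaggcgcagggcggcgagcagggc
Hspa1a: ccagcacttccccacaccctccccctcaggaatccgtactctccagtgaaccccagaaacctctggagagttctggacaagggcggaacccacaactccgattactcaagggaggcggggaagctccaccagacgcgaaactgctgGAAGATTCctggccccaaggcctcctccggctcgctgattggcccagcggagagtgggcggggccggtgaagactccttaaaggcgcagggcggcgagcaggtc
Hsph1: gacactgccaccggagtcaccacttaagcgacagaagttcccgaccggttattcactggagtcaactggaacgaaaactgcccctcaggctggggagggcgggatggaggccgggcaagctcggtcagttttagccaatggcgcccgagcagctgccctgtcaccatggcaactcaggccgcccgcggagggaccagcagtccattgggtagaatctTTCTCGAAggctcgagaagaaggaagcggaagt
The Hspa1b and Hspa1a windows were identical at 247 of 250 bases (98.8%), with the match starting 104 bases before the start in each, and in Hsph1 it began 33 bases before. A match was present in 7 of 17 measured members with a window (41.2%) and in 5 of the 9 separated members whose window was available. Hspa1b and Hspa1a are counted there as separate genes. No match was found for Hspa4l, Bag3, Chordc1 and the lower member Dnajb1. Among genes above the filter with a window a match was present in 932 of 9199 (10.1%), and in 3509 of 27025 genes in all (12.98%). A match is a run of letters and not a bound site.

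Beyond the HSP70 pair, the members differed among themselves. Hsph1, the HSP110 chaperone, stood at 8.10, 8.17, 10.06 and 9.16, and Hspa4l, a relative of it, at 6.58, 6.53, 7.89 and 7.61, although 1 of its 4 other probe sets had the opposite sign. Hspb1, a small heat shock protein, stood at 5.57, 5.50, 6.28 and 6.56, with oeLNC above oeNC. Dnaja1, Hsp90aa1 and Bag3 were higher by smaller gaps. Dnajb1, an HSP40 cochaperone, was lower at 9.28, 9.15, 8.61 and 8.97, and the constitutive Hspa8 overlapped at 11.56, 11.95, 12.37 and 11.85. The mitochondrial chaperonins Hspd1 and Hspe1 overlapped, with oeLNC the lowest array for both. In 7 of the 9 higher members oeNC stood above oeLNC, and the summed intensity of the list was 9624, 10574, 19999 and 12786.

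Immediate early genes lay on both sides, and only the higher share was above that of all genes. Of 21 members above the filter 12 were higher (57.1%) and 6 lower (28.6%, under the 32.1% of all genes). The median was 0.43. Fos, a subunit of the AP-1 factor, stood at 11.43, 11.08, 13.05 and 12.51, and its partner Jun at 9.01, 8.66, 10.42 and 9.67, with another probe set of Jun separated the opposite way. The orphan receptor gene Nr4a1 was at 8.78, 8.90, 10.06 and 9.22, the phosphatase gene Dusp1, which switches off MAP kinases, at 11.47, 11.29, 12.59 and 12.04, and Ier3, a survival factor, at 10.70, 10.62, 11.99 and 11.63. In all 12 higher members oeNC stood above oeLNC. The EGR family lay the other way, with Egr1 as above, Egr3 at 7.39, 8.28, 5.62 and 5.26 and Egr2 at 5.45, 5.47, 5.09 and 5.15. Another probe set of Egr3 had the opposite sign. Myc, the growth regulator, was lower at 6.54, 6.49, 5.47 and 5.98, and Ier2 and Klf2 were lower too. Atf3, Klf6 and Btg2 overlapped. So genes that many stimuli switch on together, such as Fos and Egr1, were on opposite sides here.

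**Figure D3:**
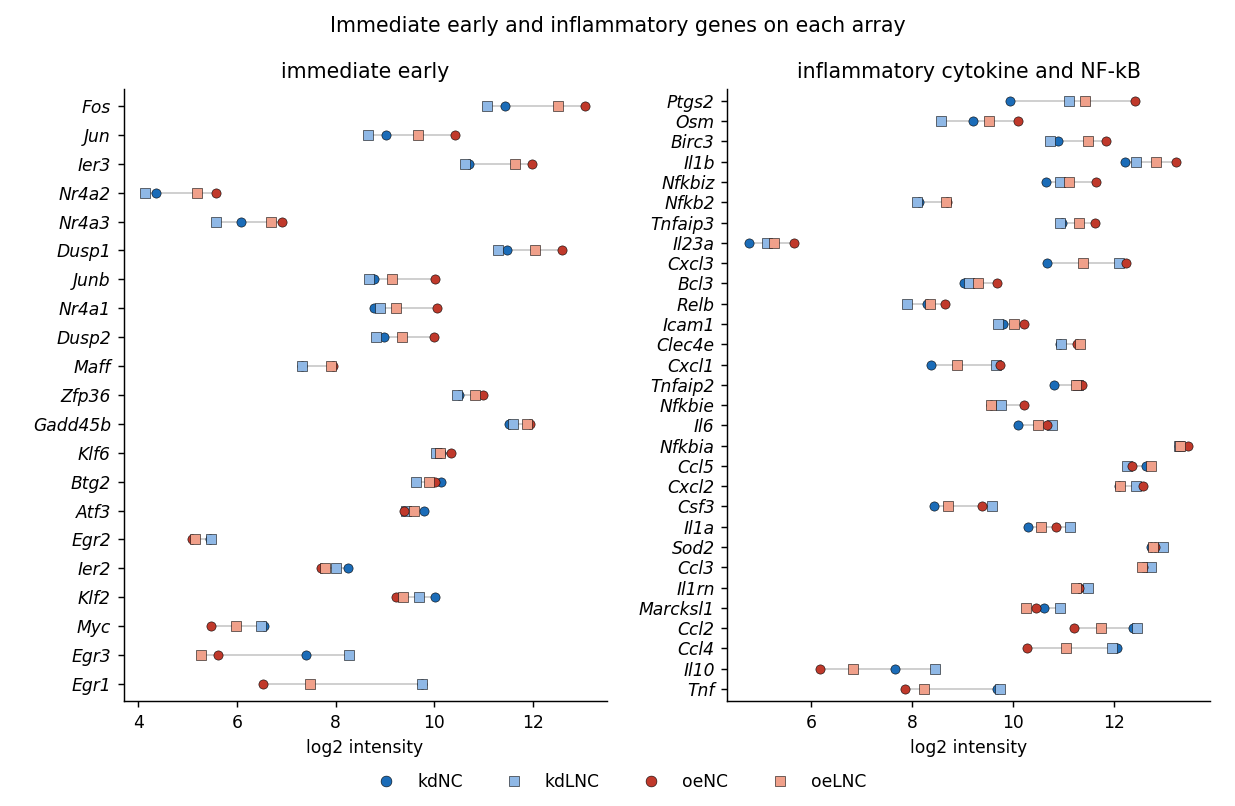
Log2 intensity (x axis) on the 4 arrays for each immediate early gene (left) and each inflammatory or NF-kB gene (right) above the filter, ordered by the mean difference between the sides, with circles for control and squares for lncRNA lentiviruses, blue for shRNA and red for overexpression. Fos, Jun and Ier3 head the left panel and Egr1 closes it, while Tnf and Il10 close the right panel.

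Inflammatory genes also lay on both sides, with a lower share under that of all genes. Of 30 members 13 were higher (43.3%) and 6 lower (20.0%, against 32.1% of all genes). The median was 0.25, and it came to 0.06 without kdNC and 0.04 without oeNC. It was 0.55 in the control pair and -0.11 in the lncRNA pair. Ptgs2, the inducible prostaglandin enzyme, stood at 9.94, 11.11, 12.41 and 11.41 and Il1b at 12.21, 12.42, 13.22 and 12.82. Birc3, Tnfaip3 and Nfkb2, targets of NF-kB, were higher, with Birc3 at 10.89, 10.72, 11.83 and 11.48, Tnfaip3 at 10.96, 10.93, 11.62 and 11.30 and Nfkb2 at 8.13, 8.09, 8.69 and 8.67. Of the genes for NF-kB inhibitors, Nfkbia was higher by only 0.01 and Nfkbie overlapped. Tnf was lower, at 9.68, 9.74, 7.86 and 8.23, a 2.73-fold gap. The monocyte chemoattractant Ccl2 was at 12.37, 12.44, 11.21 and 11.74 and Ccl4, another chemokine gene, at 12.04, 11.94, 10.26 and 11.04. Il10, the anti-inflammatory cytokine, stood at 7.66, 8.45, 6.17 and 6.82. Il6, Il1a, Cxcl1 and Cxcl2 overlapped. For Cxcl1, the neutrophil chemokine, kdNC stood at 8.38 and kdLNC at 9.66, so the shRNA arrays differed by more than the sides did.

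Interferon-stimulated genes were for the most part not separated. Of 24 members 5 were lower (20.8%, under the share of all genes) and 1 was higher, with a median of -0.14 that came to 0.01 without kdNC. The lower members were lowest on oeNC: Ifi47, an immunity-related GTPase, stood at 11.90, 11.83, 10.10 and 11.18, Ifit2, an antiviral RNA-binding protein, at 11.61, 11.35, 9.74 and 10.89, and Ifih1, the RNA sensor MDA5, at 10.59, 10.34, 9.55 and 10.09. Zbp1, a sensor of left-handed nucleic acid, followed at 10.89, 10.67, 10.16 and 10.48, though its other probe set was separated the opposite way. Stat2 was higher at 7.67, 7.23, 7.79 and 8.02.

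Genes through which MDSCs suppress T cells lay on both sides. Of 18 members above the filter 7 were higher (38.9%) and 6 lower (33.3%), against 26.2% and 32.1% of all genes. The median was 0.40. It was 0.55 in the control pair and -0.095 in the lncRNA pair. Entpd1 and Nt5e, the ectoenzymes CD39 and CD73 that turn extracellular ATP into adenosine, were both higher, at 6.92, 6.62, 8.64 and 8.33 and at 5.15, 4.49, 6.36 and 5.91. Arg2, an arginase, was at 9.91, 9.66, 11.21 and 10.69. Ptges, which makes prostaglandin E2 downstream of Ptgs2, stood at 8.01, 8.40, 8.92 and 8.85, and Nos2, the inducible nitric oxide synthase, at 5.63, 5.93, 6.33 and 6.43. Arg1, the arginase most used as an MDSC marker, was not separated, at 8.80, 10.53, 11.19 and 10.38, because kdLNC lay among the overexpression arrays. On the lower side were Il10, Tgfb1 at 7.00, 6.98, 6.43 and 6.30, the tryptophan enzyme gene Ido1 at 5.55, 6.49, 4.68 and 5.07 and the NADPH oxidase subunit gene Cybb at 11.10, 11.18, 10.73 and 11.02. Cd274, which encodes PD-L1, overlapped at 10.97 to 11.39.

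Of 8 genes known as regulators or hallmarks of MDSCs 4 were higher, none was lower and the median was 0.15. Stat3 and Stat5b, cytokine signalling factors, stood at 9.23, 9.34, 10.19 and 9.90 and at 6.19, 6.09, 7.71 and 7.06. Cebpb, a factor that drives MDSC development, had a gap of 0.12 at 11.98, 11.98, 12.28 and 12.10, and E2f3 was at 6.17, 6.02, 6.77 and 6.86. All 3 other probe sets of Stat3 were separated the same way, while another probe set of Stat5b and of E2f3 was separated the opposite way. Irf8, a monocyte lineage factor, overlapped.

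Glycolysis and hypoxia genes were higher on the overexpression side as a block. Of 25 members 19 were higher (76.0%) and none was lower, and the median of 0.57 was the highest of the 30 lists. Promoter windows of Ldha, the lactate dehydrogenase, and Slc2a1, the glucose transporter GLUT1, are shown because both hold ACGTG, the core that hypoxia-inducible factors are known to bind. They are RefSeq sequence on GRCm38.p6, plus strand, chr7:46845554-46845803 and chr4:119108495-119108744, 250 bases up to the most upstream annotated start. Matches to ACGTG or its reverse complement CACGT are in capitals. In CACGTG, a motif of E-box factors too, the match on one strand overlaps that on the other.
Ldha: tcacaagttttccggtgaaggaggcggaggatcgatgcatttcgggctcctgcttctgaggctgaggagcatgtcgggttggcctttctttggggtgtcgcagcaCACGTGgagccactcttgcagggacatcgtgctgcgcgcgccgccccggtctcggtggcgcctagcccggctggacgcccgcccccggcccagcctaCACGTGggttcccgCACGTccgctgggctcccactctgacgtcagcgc
Slc2a1: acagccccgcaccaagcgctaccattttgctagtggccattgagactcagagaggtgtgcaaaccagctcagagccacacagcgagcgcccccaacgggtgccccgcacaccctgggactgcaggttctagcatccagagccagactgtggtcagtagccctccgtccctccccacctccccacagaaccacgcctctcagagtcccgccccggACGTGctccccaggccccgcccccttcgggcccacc
The core was present in 11 of 23 measured members with a window (47.8%) and in 9 of 17 separated ones (52.9%), against 2002 of 9199 genes above the filter (21.8%) and 16.5% of all genes with a window. No match was found in the windows of Vegfa and Mxi1, which says only that these letters are not in those 250 bases.

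Vegfa had the widest gap of the list and the transcription repressor gene Mxi1 the next, at 8.79, 8.29, 10.12 and 9.88. Slc2a1 stood at 10.31, 10.41, 11.73 and 11.27. Ero1a, an oxidase of the endoplasmic reticulum, was at 10.25, 9.78, 11.01 and 11.43, and Ndrg1, a stress gene, at 8.25, 8.05, 9.09 and 8.92. The enzymes of glycolysis had small gaps: Ldha stood at 10.68, 10.30, 10.97 and 10.92, Pgk1 at 12.16, 11.90, 12.31 and 12.37 and Gapdh at 12.25, 12.14, 12.47 and 12.40. In 17 of the 19 members kdLNC was the lower shRNA array, and without kdLNC the median came to 0.32. Egln3, an oxygen sensor that hypoxia induces, overlapped at 9.73, 8.11, 9.64 and 10.66. Another hexose transporter, Slc2a3, stood at 11.05, 9.55, 11.78 and 12.17.

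Separated genes of the cell cycle were all lower on the overexpression side by the probe set used. Of 19 mitosis genes 17 were lower and none higher, with a median of -0.60. For Tpx2, among these 17, 2 other probe sets were separated the opposite way. Ccnb2, a mitotic cyclin, stood at 6.47, 6.30, 5.59 and 5.11, Birc5, survivin, at 7.53, 7.46, 6.85 and 6.12, and the kinetochore motor gene Cenpe at 6.07, 5.95, 5.35 and 5.19. In all 17, among them the checkpoint kinase gene Bub1b with a gap of 0.44, the lowest array was oeLNC. Of 20 DNA replication genes above the filter 16 were lower and none higher, with a median of -0.54. Gins1, a subunit of the replicative helicase, stood at 6.66, 6.38, 5.25 and 5.21, Mcm6, of the same helicase, at 8.20, 8.12, 7.31 and 6.99, and Rrm2, a ribonucleotide reductase subunit, at 9.77, 9.48, 8.87 and 8.62. Uhrf1, which guides DNA methylation to new strands, had a gap of 0.37. The sterol, B-cell and cell cycle genes thus shared a direction, but their spread within the overexpression side was unlike: from oeNC to oeLNC the median was -0.46 for mitosis, -0.38 for DNA replication, -0.05 for the B lineage and -0.01 for cholesterol synthesis.

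Cholesterol synthesis genes had the second lowest median of the lists. Of 16 measured members 14 were lower and none higher, and the median was -0.94. Sqle, which makes squalene epoxide, stood at 6.57, 6.26, 4.14 and 4.45, Idi1, an isoprenoid isomerase, at 7.28, 7.29, 5.43 and 5.48 and Cyp51, a sterol demethylase, at 6.82, 6.36, 5.06 and 5.20. Insig1, a sterol sensor that the same pathway induces, was at 7.37, 7.36, 6.09 and 5.95. Srebf2, the transcription factor over the pathway, had a smaller difference at 6.84, 6.49, 6.07 and 6.02. Mvd and Mvk, enzymes of the mevalonate steps, overlapped. The summed intensity of the list was 2187, 1744, 969 and 972, about equal on the overexpression arrays.

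**Figure D4:**
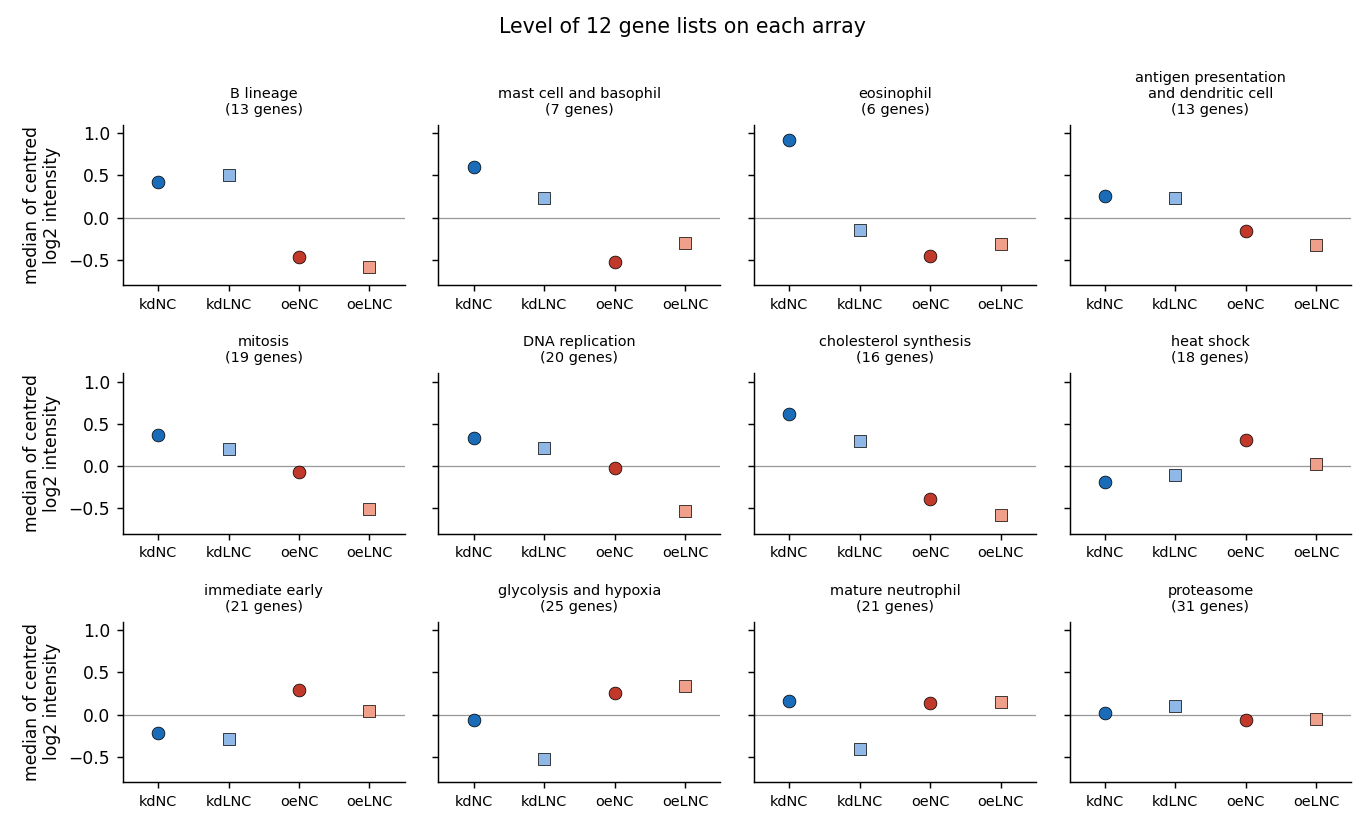
Median over the members of 12 gene lists of the log2 intensity after each gene's mean over the 4 arrays was taken off (y axis), by array (x axis), with blue for the shRNA side and red for the overexpression side. The B lineage lies at 0.42 and 0.51 on the shRNA arrays and -0.47 and -0.58 on the overexpression arrays, while mature neutrophil genes differ from the rest on kdLNC, at -0.41.

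Proteasome subunits were lower by small amounts. Of 31 members 19 were lower (61.3%) and none was higher, the median was -0.14, and gaps ran from 0.01 to 0.27. Psmd6, a lid subunit, stood at 8.77, 8.67, 7.96 and 8.39, and Psmc1, a base ATPase, at 8.05, 8.18, 7.80 and 7.82. The lid subunits Psmd13 and Psmd14 had gaps of 0.16 and 0.14. After quantile normalization 16 were lower and 1 was higher. Stress programmes outside the heat shock list were mixed. Of 16 genes for chaperones of the endoplasmic reticulum 4 were higher and 4 lower, with a median of -0.06. Dnajb9, a cochaperone of that compartment, stood at 8.31, 8.44, 9.09 and 9.26, while the main chaperone Hspa5 overlapped at 12.04 to 12.18. The secreted survival factor Manf and the degradation gene Edem1 were higher by gaps of 0.18 and 0.33, and the chaperone partner Sdf2l1 was lower by 0.19. Another probe set of Edem1 was separated the opposite way.

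Of 18 amino acid stress genes 6 were higher and 6 lower (33.3% each, against 26.2% and 32.1% of all genes). The median was -0.18. Both chains of the cystine importer were higher, Slc7a11 at 9.79, 9.84, 11.17 and 10.86 and Slc3a2 at 10.34, 10.25, 11.38 and 11.24, though another probe set of Slc7a11 had the opposite sign. Ddit4, an inhibitor of mTORC1, was at 7.87, 7.23, 9.34 and 8.39. The transcription factor gene Atf5 was lower at 8.48, 8.59, 7.14 and 7.62, as were the serine synthesis genes Phgdh at 9.53, 9.98, 9.29 and 8.98 and Psat1 at 7.82, 8.08, 7.52 and 7.04. Cth, a transsulfuration enzyme, was high on kdLNC alone, at 3.89, 6.50, 3.98 and 3.40. Of 14 oxidative stress and metal genes 4 were higher (28.6%) and 6 lower (42.9%), with a median of 0.10. That sign was not stable: the median was -0.18 in the control pair and -0.06 in the lncRNA pair. Slc30a1, a zinc exporter, stood at 6.63, 6.52, 5.55 and 5.82, and Gclc, of glutathione synthesis, at 8.13, 8.05, 7.77 and 7.78. The stress gene Osgin1 and the metallothionein gene Mt1 were lower by 0.38 and 0.20, with another probe set of Mt1 separated the opposite way. Hmox1, the heme oxygenase, was higher at 8.35, 8.04, 8.48 and 8.78.

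Among 15 lysosome genes 4 were higher (26.7%) and 3 lower (20.0%), against 26.2% and 32.1% of all genes. The median was -0.03. The glycosidase genes Gla and Neu1 led the list, at 8.72, 8.74, 9.53 and 9.38 and at 7.51, 7.48, 8.20 and 7.93. Another probe set of Gla was separated the opposite way. Lipa, the acid lipase, was lower at 9.35, 9.36, 8.71 and 9.10, and Ctsd, a lysosomal protease, was lower by 0.18. Of 12 circadian genes 4 were higher (33.3%) and 2 lower (16.7%), with a median of 0.01. Per1, a clock repressor that stress hormones and signalling also induce, stood at 6.95, 6.70, 9.02 and 8.32, a 2.59-fold gap. Its activator gene Arntl was at 6.84, 6.54, 6.03 and 6.05, with another probe set at 5.37 to 5.44 that overlapped, and Clock was higher at 5.33, 5.41, 6.58 and 5.84, as was the repressor gene Nr1d2 by a gap of 0.44. Of the 3 Y-linked genes above the filter 1 was separated. Eif2s3y, a Y-linked gene, lay between 6.06 and 6.66 and overlapped, Uty between 4.16 and 4.81, and Kdm5d was the separated one, at 5.24, 5.69, 4.90 and 4.74. Xist, which silences the second X chromosome of females, lay at 3.45 to 3.98, under the filter on every array.

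The pairs of arrays that share no array were compared across genes. For each gene, oeNC minus kdNC was set beside oeLNC minus kdLNC. Over 11345 genes Pearson's r was 0.58 and Spearman's rho 0.52, and 67.2% of genes had the same sign in both. Genes are not independent replicates, and each pair also holds its own culture and array, so this describes 4 arrays. The standard deviation over genes was 0.53 for the control pair and 0.51 for the lncRNA pair, against 0.28 between the shRNA arrays and 0.34 between the overexpression arrays. A 2-fold difference was found in 785 genes in the control pair and in 614 in the lncRNA pair. Ltf lay off the common direction, at 0.74 in the control pair and 2.92 in the lncRNA pair. Cth stood at 0.08 and -3.10. In both genes kdLNC differed from kdNC by more than oeLNC differed from oeNC.

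**Figure D5:**
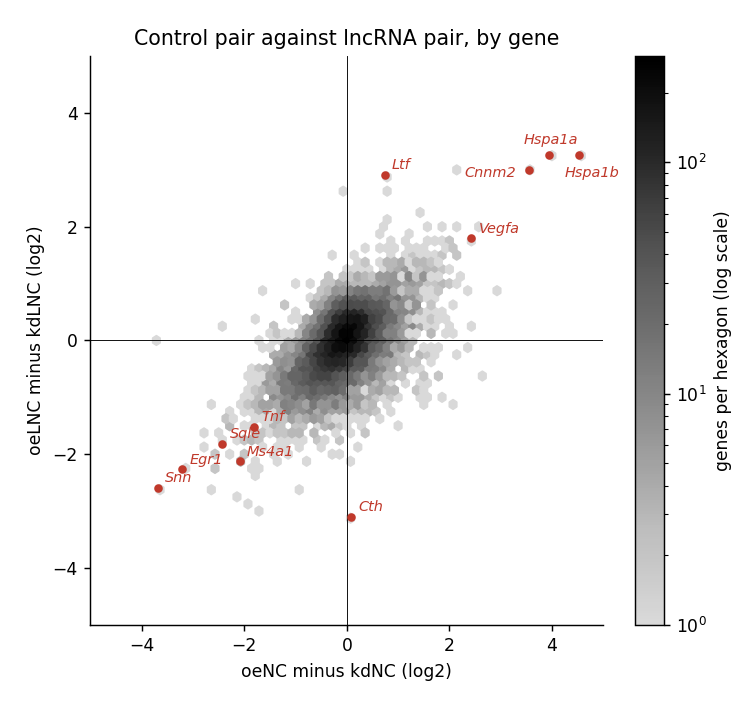
Log2 difference of oeNC and kdNC (x axis) against that of oeLNC and kdLNC (y axis) for 11345 genes, with darker hexagons holding more genes and 11 genes marked in red. Most marked genes lie along the rising diagonal, from Snn and Egr1 at the lower left to Hspa1b at the upper right, and Ltf and Cth lie away from it. All marked genes but Cth are separated genes, which by the rule have the same sign on both axes.

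How the arrays were ordered within a side differed by direction. Of the 2972 higher genes, oeNC was farther from the shRNA side than oeLNC in 1847 (62.1%), and kdLNC was nearer to the overexpression side than kdNC in 959 (32.3%). Of the 3637 lower genes oeNC was the farther in 1966 (54.1%) and kdLNC the nearer in 1857 (51.1%). Among gene lists, the 12 higher immediate early genes and the 5 lower mast cell and basophil genes all lay farthest on oeNC, and the mitosis genes lay farthest on oeLNC in all 17.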

How the data were processed

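Total RNA of 4 C57BL/6 mouse marrow cultures was hybridized to Affymetrix GeneChip mouse arrays, 1 array per group, as labelled. The authors deposited 1 normalized intensity per probe set and array on a linear scale, made with RMA according to the submitters' processing notes. The version of RMA is not given in the sources used here. RMA gives all arrays one distribution or close to it, so a shift of the whole transcriptome would not be seen. The deposited arrays still differed somewhat, with lower quartiles of 2.77 to 2.93 and upper quartiles of 5.98 to 6.15 on the log2 scale. The number of arrays limits the precision.

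Intensities of 45101 probe sets were turned into log2. By the platform annotation 34958 probe sets have 1 gene symbol, 932 have several and 9211 have none, and only the first were used. A gene is its brightest probe set, and 9012 genes had several. The filter kept genes whose mean over the 4 arrays exceeded 4.199, the median of all probe sets. No test was applied to separated genes, since the rule uses that contrast. The members and lists were chosen with earlier results of these data known. Of 534 list genes 490 had a probe set with 1 symbol. The genes named are the 12 with the widest gap in each direction whose other probe sets above the filter share the sign of the difference, up to 4 separated members of each list by gap, all sex-linked genes and 6 defining markers. Other list members that the text names were picked after their values were seen, to show how a list varies. Promoter windows, gene spans and symbols come from RefSeq on GRCm38.p6.

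Python 3.11.15 with pandas 2.3.3, numpy 2.4.6, scipy 1.17.1 and matplotlib 3.10.9 and R 4.3.3 with limma 3.58.1 (lmFit, eBayes, Benjamini-Hochberg) were used, and the counting and the limma fit were tested on simulated data. Alternatives were median centring, quantile normalization, the mean of all probe sets, no probe sets that may match several transcripts, other filters and folds, and leaving out each array.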

Additional observations from a re-analysis of the deposited data

Results flagged for a closer look

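Some results lay outside the main comparison or differed between the pairs of arrays, and no explanation of them was tested. Probe sets with no gene symbol or with several were not used for the gene lists. Of 3304 such probe sets above the filter, 52 had nearest arrays at least 2-fold apart, 10 of them higher and 42 lower on the overexpression side. That is 1.57%, against 1.61% of the genes with 1 symbol.

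In 11 gene lists the median difference had opposite signs in the control pair (oeNC minus kdNC) and in the lncRNA pair (oeLNC minus kdLNC), and in 6 of these both medians were at least 0.1 from 0. With 1 array per group these differences between the pairs were not tested. The monocyte list had a median of 0.18 in the control pair and -0.21 in the lncRNA pair. The T and NK cell list stood at -0.19 and 0.10, and the stromal list at -0.15 and 0.25. Inflammatory and NF-kB genes stood at 0.55 in the control pair and -0.11 in the lncRNA pair, and interferon-stimulated genes ran the other way at -0.43 and 0.11. The sex-linked list, with 3 genes above the filter, stood at 0.27 and -0.58. In the other 5 a median lay nearer to 0. They were the MDSC suppressive effectors at 0.55 and -0.095, amino acid stress at 0.03 and -0.26, lysosome at 0.08 and -0.12, stem and progenitor at -0.10 and 0.04, and the endoplasmic reticulum chaperones at -0.01 and 0.00122.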

How the results depend on the processing

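No paired analysis was possible because each labelled group has 1 array. How far dim genes lie above background could not be judged from these values. Without a filter on low values 4839 genes were higher, limma called 0 of 18194 genes at an adjusted p under 0.05 (3498 at an unadjusted p under 0.05, smallest adjusted p 0.0513) against 784 to 1047 in the other settings, and the medians were 0.17 (macrophage), -0.27 (antigen presentation), -0.17 (mast cell and basophil) and 0.076 (erythroid). Of the 129 named separated genes 128 stayed separated the same way after median centring, 127 after quantile normalization, 114 of 123 with the mean of all probe sets and 105 of 108 without probe sets that may match several transcripts. Of all the settings' differences for single genes, 58 moved by more than the spread used. In all, 12 differences of single genes and 24 list medians changed sign, 7 and 2 of them where in the deposited values all differences between an overexpression and an shRNA array shared a sign.

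Quantile normalization gave 79 genes at least 2-fold higher and medians of 0.15 (macrophage), -0.36 (antigen presentation) and -0.93 (B lineage), and Kit turned to 0.018. With the mean of all probe sets the medians were -0.51 (antigen presentation), -0.69 (B lineage), 0.46 (heat shock), -0.035 (endoplasmic reticulum), -0.093 (oxidative stress) and 0.18 (immediate early), and the differences of Kit, Edem1, Zbp1 and E2f3 turned to 0.36, -0.16, 0.072 and -0.12. Without probe sets that may match several transcripts they were 0.016 (antigen presentation, turned), -1.14 (mast cell and basophil), 0.036 (T and NK cell, also turned) and -0.020 (endoplasmic reticulum), with Mt1 turned to 0.22 and Zbp1 to 0.61. Above the 70th percentile they were -0.25 (erythroid, turned), -0.69 (T and NK cell), -0.20 (stem and progenitor) and 0.20 (circadian), and above the median of any array the macrophage list was at 0.13. A 1.5-fold gap gave 248 higher and 603 lower genes, and a 3-fold gap 6 and 22. The cause of these shifts was not tested.

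Leaving out an array loosens the rule by construction. The genes at least 2-fold apart then ranged from 59 (without oeNC) to 238 (without oeLNC) higher and from 197 (without kdLNC) to 326 (without oeLNC) lower. List medians ranged from 0.066 to 0.63 (mature neutrophil), 0.048 to 0.57 (primary granule) and 0.12 to 0.28 (erythroid), each lowest without kdLNC and highest without kdNC. They ranged from 0.11 to 0.14 (macrophage), -0.65 to -0.42 (antigen presentation), -1.03 to -0.93 (B lineage), -0.11 to 0.10 (stem and progenitor), 0.16 to 0.45 (heat shock), -0.073 to 0.013 (endoplasmic reticulum), -0.18 to -0.016 (amino acid stress), -0.067 to 0.081 (oxidative stress), -0.017 to 0.14 (circadian), 0.071 to 0.33 (MDSC regulators) and -0.073 to 0.096 (lysosome).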
